A study of Mus musculus with 4 samples.

Results

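Osteopontin (Spp1) and the genes for its main cell surface receptors were followed in single CD11b+ cells of the mouse brain after sham surgery or cerebrovascular injury. The 6 genes were taken by symbol, out of the 32285 genes counted in every library: Spp1 itself, the hyaluronan receptor gene Cd44, the integrin alpha chain gene Itgav, and the integrin beta chain genes Itgb1, Itgb3 and Itgb5. All 6 were found in all 4 libraries. Osteopontin is a secreted, heavily phosphorylated matrix and cytokine-like protein that is made by activated macrophages and by microglia in damaged, ageing or developing brain. Its Arg-Gly-Asp sequence is bound by integrin dimers such as alpha v beta 1, alpha v beta 3 and alpha v beta 5, and its C-terminal part has been reported to act through CD44. In the brain it is best known as a gene of the phagocytic, lipid-handling state of microglia that arises around lesions and plaques.

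There were 4 groups, each with 1 mouse and 1 library: IL6 wild type (+/+) after sham surgery, IL6 wild type after injury, IL6 knockout (-/-) after sham surgery and IL6 knockout after injury. The mice were 8 to 12 weeks old, and the injured mice were taken 6 days after pulsed ultrasound with intravenous microspheres under thinned skull. One label field places the sham mice 6 days after surgery and another calls them uninjured, and the labels do not say whether the mild or the severe form of injury was used here. A 4 mm punch of brain was dissociated and CD11b+ cells were taken on beads, so the shares of cell types depend in part on that selection. RNA was captured at its 3′ end, and each value below is a count of unique molecular identifiers (UMIs), which stand for single captured RNA molecules, or CPM, the UMIs of a gene scaled to a total of 1000000 UMIs over the cells summed. With 1 mouse a group no test between groups was possible. The intervals cover counting error only, and they are too narrow for Spp1, whose UMIs were concentrated in few cells.

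After filtering, 7866 of 16040 barcodes were analysed, between 984 and 2924 a library, with a median of 7754 to 10063.5 UMIs a cell. Il6 UMIs were found in all 4 libraries, at 10.5 CPM in wild-type sham, 4.57 CPM in wild-type injured, 26.7 CPM in knockout sham and 21.9 CPM in knockout injured cells. The 3′ UMIs do not check a deletion whose exon is not named, so the latter libraries are called knockout-labelled. Across libraries, 161 barcodes occurred more than once, 135 of them in both sham libraries, and there the fainter copy held a median of 1.90% of the UMIs of the brighter one. Cells were grouped into 18 clusters without the use of the 6 genes, and clusters were named from marker genes. Of these, 9 were microglia-like and 1 each was monocyte-derived macrophage-like, border-associated macrophage-like, dendritic cell-like, neutrophil-like, endothelial-like and oligodendrocyte lineage-like, while 3 stayed unnamed.

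One cluster needs its name qualified before the results. The cluster led by Cd5l, Spp1 and Igf1 held 360 cells of the injured wild-type library, 36 of the injured knockout-labelled library and none of either sham library. It was microglia-like by the naming rule, with the microglial genes P2ry12 in 81.6%, Tmem119 in 74.0% and Sall1 in 46.7% of its cells. Its cells also carried Ms4a7 in 80.8%, Ms4a6c in 86.1% and Folr2 in 64.6%, genes better known from monocyte-derived and border-associated macrophages, whereas Ccr2, the chemokine receptor of infiltrating monocytes, was found in 2.27%. Under 5 of the 6 alternative filters or clusterings over 80% of these cells lost the microglia-like name, because Folr2 entered the 10 leading genes of their cluster. Totals for microglia-like cells are therefore given with and without this cluster.

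Spp1 lies on the plus strand at chr5:104435118-104441050 of mm10 (GRCm38). The stretch that integrins bind is shown because it ties the ligand to 4 of the 5 receptor genes described further on. In the GENCODE vM21 transcript the Arg-Gly-Asp codons occur once, starting at codon 144 of 294 in exon 6, and are given in capitals within chr5:104439466-104439525 (plus strand).
Spp1 coding sequence: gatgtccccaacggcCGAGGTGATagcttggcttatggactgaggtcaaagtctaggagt
The promoter is shown because the Spp1 level differed widely between the libraries. It is the 250 bases before the first of the 2 RefSeq start sites of the gene (GRCm38.p6, chr5:104434861-104435110, plus strand), with matches to the searched motifs in capitals.
Spp1 promoter: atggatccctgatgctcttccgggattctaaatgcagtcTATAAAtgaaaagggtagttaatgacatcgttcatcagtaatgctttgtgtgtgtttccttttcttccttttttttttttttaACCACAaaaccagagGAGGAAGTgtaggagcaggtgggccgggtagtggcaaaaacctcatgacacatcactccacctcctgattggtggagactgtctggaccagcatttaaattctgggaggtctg
Both strands were searched for 5 motifs, whose matches did not overlap. TATAAA began 211 bases before the start and is found in 12.4% of 32851 promoters of the same length. TGTGGT, the core bound by Runx factors, was matched on the minus strand (ACCACA in the printed strand) 128 bases before the start and is found in 14.0% of promoters. GAGGAAGT, a site of the kind bound by the myeloid factor PU.1, lay 113 bases before the start and is found in 2.44% of promoters. Neither TGANTCA (the AP-1 motif, in 6.75% of promoters) nor CACGTG (the E-box of the Mitf and Tfe3 family, in 6.02%) was matched in this window.

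The other genes were placed by the same annotation. Cd44 is at chr2:102811141-102901665 on the minus strand. Itgav is at chr2:83724397-83806916, Itgb1 at chr8:128685654-128733200, Itgb3 at chr11:104608000-104670476 and Itgb5 at chr16:33829665-33949338, all on the plus strand.

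Spp1 was nearly absent from both sham libraries and abundant in both injured ones, most of all in the wild type. Over all analysed cells 141 Spp1 UMIs (14.0 CPM, 95% Poisson interval 11.8 to 16.5) were counted in wild-type sham and 429818 (11894 CPM, 11859 to 11930) in wild-type injured. The knockout-labelled libraries held 161 UMIs (12.4 CPM, 10.5 to 14.4) after sham surgery and 29156 (1163 CPM, 1150 to 1176) after injury. Both injured libraries thus lay far above both sham libraries, and the injured wild type above the injured knockout-labelled library.

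The UMIs were spread very unevenly over cells. In the injured wild type, the median cell held 3 Spp1 UMIs, the upper quartile 52 and the 90th percentile 363, and the highest cell held 10966, which was 28.6% of all its UMIs. In the injured knockout-labelled library the median was 0, the upper quartile 1, the 90th percentile 6 and the highest cell 5048, or 16.0% of its UMIs. At least 100 Spp1 UMIs were found in 574 of 2924 cells (19.6%) of the injured wild type and in 52 of 2582 cells (2.01%) of the injured knockout-labelled library. At least 1000 were found in 114 and 3 cells. In each sham library the 1% of cells with most Spp1 held over 90% of it (92.2% in wild type and 98.1% in knockout-labelled).

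**Figure D1:**
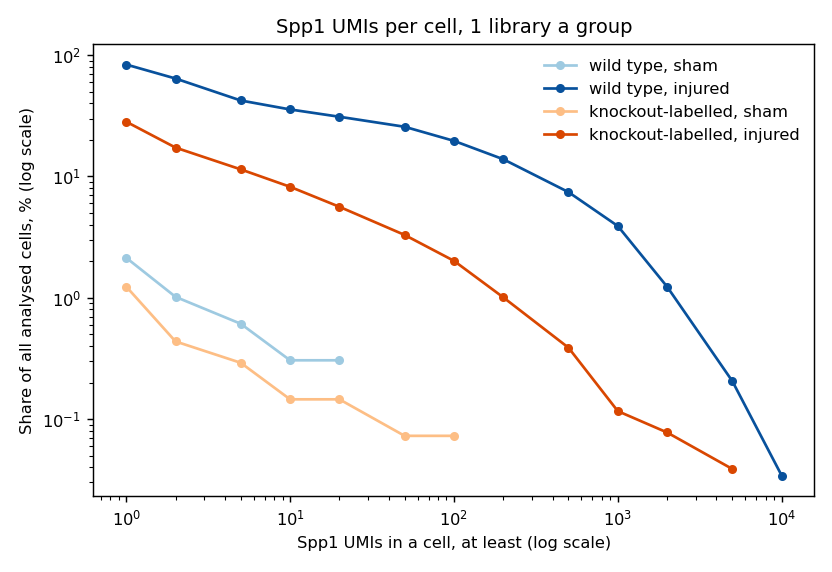
Share of all analysed cells (vertical, %, log scale) with at least the number of Spp1 UMIs on the horizontal axis (log scale), 1 line a library; thresholds that no cell reached are not drawn. The injured wild-type line runs from 83.6% at 1 UMI to 3.90% at 1000 UMIs and lies above the injured knockout-labelled line (28.2% and 0.116%), and the sham lines start at 2.13% and 1.24%.

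In the injured wild type a single Spp1 UMI did not set the producing cells apart. There 83.6% of all cells had at least 1 UMI, as did 67.1% of endothelial-like cells (82 cells, median 4448.5 UMIs a cell) and 54.8% of neutrophil-like cells (42 cells, median 1693 UMIs), against 83.0% of microglia-like cells (2059 cells, median 9661 UMIs). After each cell was thinned to 3000 UMIs, with 129 of 2059 microglia-like and 21 of 82 endothelial-like cells left out as too shallow, the shares were 59.2% and 39.3%. At least 10 UMIs were found in 28.8% of microglia-like and 4.88% of endothelial-like cells. In the injured knockout-labelled library 29.2% of microglia-like cells (2008 cells, median 9345.5 UMIs) and 11.9% of endothelial-like cells (135 cells, median 4264 UMIs) had an Spp1 UMI, and 18.1% and 7.62% after thinning, with 103 and 30 cells left out. Levels at or below those of endothelial-like cells of the same library are read here as background.

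Spp1 of the injured libraries came mainly from 3 clusters. The highest level was in the Cd5l/Igf1 cluster, with 29616 CPM (29490 to 29742) in the injured wild type and 16816 CPM in the injured knockout-labelled library. The monocyte-derived macrophage-like cluster, led by Lyz2 and Gpnmb, had 16747 and 3672 CPM. The microglia-like Lpl/Ch25h cluster, led by the lipase gene Lpl and the cholesterol hydroxylase gene Ch25h, had 7573 and 2025 CPM. In both injured libraries the summed levels followed each other in this order without overlapping counting intervals, which do not cover the spread between cells. In the knockout-labelled library the order of the macrophage-like and Lpl/Ch25h clusters is uncertain, because both had a median of 3 Spp1 UMIs a cell. At least 10 UMIs were found there in 38.3% of macrophage-like and 38.9% of Lpl/Ch25h cells.

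The Cd5l/Igf1 and macrophage-like clusters made a larger share of Spp1 than of cells in both injured libraries, and the Lpl/Ch25h cluster in the knockout-labelled one only. In the injured wild type the Cd5l/Igf1 cluster was 12.3% of cells and made 49.2% of Spp1 UMIs, the macrophage-like cluster was 17.3% of cells and made 37.0%, and the Lpl/Ch25h cluster was 14.4% of cells and made 12.1%. In the injured knockout-labelled library the same clusters were 1.39%, 2.32% and 8.17% of cells and made 45.2%, 9.65% and 28.7% of Spp1 UMIs. Microglia-like cells as a whole made 62.4% of Spp1 in the injured wild type and 86.5% in the injured knockout-labelled library, and 13.2% and 41.3% without the Cd5l/Igf1 cluster. The name given to that cluster thus decides whether most wild-type Spp1 is counted as microglia-like.

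**Figure D2:**
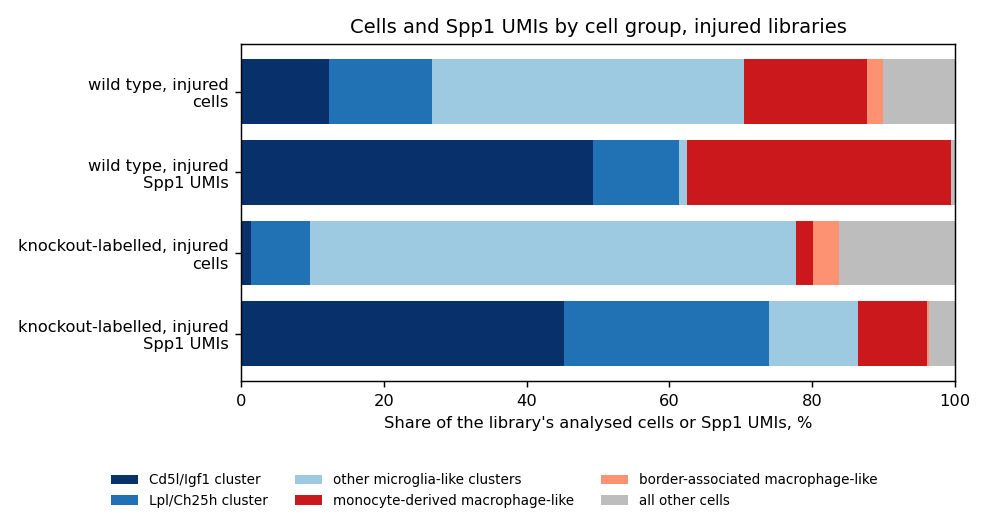
Share of the analysed cells and of the Spp1 UMIs (horizontal, %) held by each group of cells in the 2 injured libraries, 1 bar each. The Cd5l/Igf1 cluster takes 12.3% of cells but 49.2% of Spp1 UMIs in the wild type, and 1.39% of cells but 45.2% of Spp1 UMIs in the knockout-labelled library.

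Within the producing clusters the UMIs were again uneven. In the wild type, the median was 160.5 Spp1 UMIs a cell in the Cd5l/Igf1 cluster, 116 in the macrophage-like cluster and 11 in the Lpl/Ch25h cluster. In the knockout-labelled library the same medians were 39.5, 3 and 3. There 2 of 36 Cd5l/Igf1 cells and 4 of 60 macrophage-like cells held at least 50% of the Spp1 UMIs of their cluster. Among all microglia-like cells of the injured wild type, 40 of 2059 cells held 50% of the Spp1 UMIs, and in the injured knockout-labelled library 8 of 2008 did. The most loaded 10% of microglia-like cells held 89.4% and 97.0%.

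Other clusters held less Spp1. Next was the unnamed Ccl6/Cst7 cluster, whose cells were shallow (median 2589 UMIs in the wild type), with 3265 CPM in 59 wild-type and 1125 CPM in 200 knockout-labelled cells. In the injured wild type, 673.9 CPM were found in the interferon-response cluster (Ifit3/Ifit2), 576 CPM in the Ifi27l2a/Ccl9 cluster and 527 CPM in the cytokine cluster (Dusp2/Il1a), against 472 CPM (417 to 531) in endothelial-like cells. The clusters with the highest shares of the microglial genes P2ry12 and Tmem119 (Hspa1b/P2ry13 and Slc5a3/Hbegf) had 242 and 224 CPM, and the Lag3/Gng10 cluster 193 CPM, all below the endothelial-like level. That level rested largely on 1 of 82 endothelial-like cells, which held 137 of their 273 UMIs, so the order against it is uncertain. In the injured knockout-labelled library the Ifi27l2a/Ccl9 and Dusp2/Il1a clusters had 442 and 306 CPM, against 30.6 CPM (19.4 to 45.9) in endothelial-like cells. The Slc5a3/Hbegf and Lag3/Gng10 clusters also lay above that level there, at 93.9 CPM (74.6 to 117) and 49.4 CPM (41.7 to 58.0). The Hspa1b/P2ry13 cluster lay below it, at 16.9 CPM (9.66 to 27.5). The dendritic cell-like level of the injured wild type (1258 CPM) rested on 1 cell, which held 592 of 713 UMIs, and that of the injured knockout-labelled library (1878 CPM, 15 cells) on 1 cell with 318 of 320. In the oligodendrocyte lineage-like cells of the injured wild type (1083 CPM) 2 of 32 cells held 253 of 279 UMIs.

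**Figure D3:**
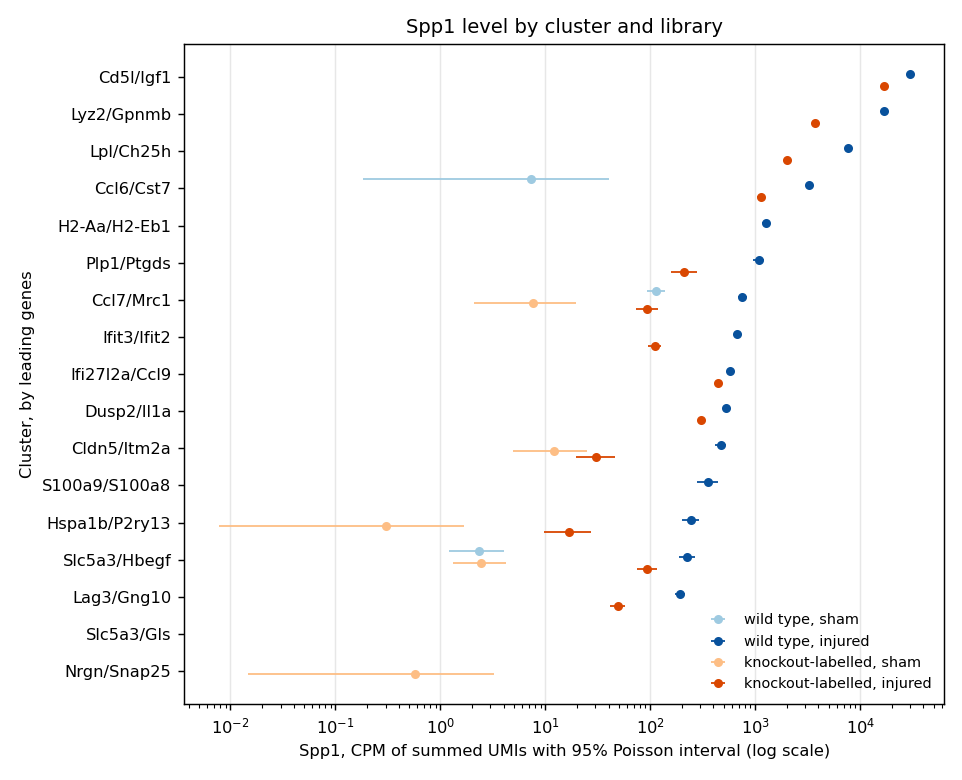
Spp1 level (horizontal, CPM of summed UMIs, log scale, with 95% Poisson interval) in each cluster with at least 20 cells of a library, 1 cluster left out, with colours for the 4 libraries; levels of 0 are not drawn. Among the injured wild-type points the Cd5l/Igf1, Lyz2/Gpnmb and Lpl/Ch25h clusters stand highest, at 29616, 16747 and 7573 CPM. The Cd5l/Igf1 point of the injured knockout-labelled library lies at 16816 CPM, and the sham points lie at or below 114 CPM.

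Border-associated macrophage-like cells were the main source in wild-type sham brain. They made 99 of 141 UMIs there (113.7 CPM, 92.4 to 138), from 11 of 103 cells, and 2 cells held 74 of these UMIs, 1 of them with a barcode that also occurred in another library. In knockout-labelled sham the same class held 4 UMIs in 65 cells (7.61 CPM). After injury the class had 754 CPM in the wild type and 93.8 CPM in the knockout-labelled library. The wild-type value is 6.63 times its sham value (5.30 to 8.37). Endothelial-like cells of the same injured libraries, read as background, had 472 and 30.6 CPM.

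In microglia-like cells Spp1 was higher after injury in both genotypes. The level was 5.53 CPM in wild-type sham (38 UMIs), 11085 CPM in wild-type injured (268333 UMIs), 15.8 CPM in knockout-labelled sham (149 UMIs) and 1167 CPM in knockout-labelled injured (25214 UMIs). The injured level was 2004 times the sham level in the wild type (95% interval for counting error 1460 to 2832) and 73.95 times in the knockout-labelled pair (63.0 to 87.5). Of the 149 knockout-labelled sham UMIs, 104 came from 1 cell whose barcode also occurred in another library. It was a deep cell, with 33366 UMIs in all against a median of 8138 in that library. Without shared barcodes the knockout-labelled ratio was 109.5 (81.5 to 151). That alternative clustered the cells anew and left 92.6% of the Cd5l/Igf1 cells unnamed, so it does not isolate the effect of the 1 cell. Without the Cd5l/Igf1 cluster the ratios were 601 (438 to 849.9) and 36.6 (31.2 to 43.3). On the log2 scale with a prior of 10 CPM, the wild-type ratio exceeded the knockout-labelled one by 3.97, or by 3.24 without that cluster. The summed level of 8 monocyte-derived macrophage markers in microglia-like cells was also higher after injury in both pairs, at 430 CPM in wild-type sham, 3591 CPM in wild-type injured, 399 CPM in knockout-labelled sham and 1655 CPM in knockout-labelled injured. All but 1 of these 8 markers were above 0 in wild-type sham and all 8 in the other libraries. Without the Cd5l/Igf1 cluster the sums of the injured libraries were 2260 and 1450 CPM, and the part of these markers in the result was not tested. The 12 microglia markers summed to 24736, 16038, 27864 and 20824 CPM in the same order, with none at 0.

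Between the injured libraries, microglia-like Spp1 was lower in the knockout-labelled one, at 0.105 times the wild-type level (0.104 to 0.107) and 0.174 times without the Cd5l/Igf1 cluster. Inside the 3 producing clusters the gap was smaller than over all microglia-like cells. The wild-type level was 1.76 times the knockout-labelled one in the Cd5l/Igf1 cluster, 4.56 times in the macrophage-like cluster and 3.74 times in the Lpl/Ch25h cluster. The first ratio rests on few cells, as 2 of 36 knockout-labelled Cd5l/Igf1 cells held at least 50% of the Spp1 UMIs there. The median cell of that cluster held 160.5 Spp1 UMIs in the wild type and 39.5 in the knockout-labelled library. These clusters also held fewer of the knockout-labelled cells, so the number of cells and the Spp1 per cell both differed between the libraries. Between the sham libraries the knockout-labelled level was 2.85 times the wild-type one, but it rested largely on the 1 deep cell with a shared barcode. Without shared barcodes, and with the cells clustered anew, the ratio was 0.786.

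The 6 genes were read against all genes of microglia-like cells. A gene was counted as 2-fold different on the log2 scale with a prior of 10 CPM, if it reached 20 CPM in 1 library of a pair and 50 UMIs over the libraries. In the wild-type pair 2 of the 6 genes, Spp1 and Cd44, were at least 2-fold higher after injury, against 4.25% of the 6235 genes counted, and none was 2-fold lower, against 10% (14.3% in either direction). Without the Cd5l/Igf1 cluster Cd44 fell short of 20 CPM and its log2 ratio was 0.90. In the knockout-labelled pair only Spp1 was 2-fold higher (2.63% of 6125 genes) and none was lower (1.52%, and 4.15% in either direction), with Cd44 under the minimum level. Between the injured libraries Spp1 was lower in the knockout-labelled one (0.809% of 5436 genes were lower, 0.129% higher and 0.938% either), and between the sham libraries no member was called (0.0653% of 6126 genes were higher, 0.131% lower and 0.196% either). The median log2 ratio of all genes was -0.32 in the wild-type pair and -0.21 in the knockout-labelled pair, and scaling by the median of ratios moved these to 0.12 and 0.08. With that scaling the wild-type split of 265 higher and 625 lower genes became 592 higher and 151 lower, and the knockout-labelled split of 161 and 93 became 276 and 28.

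The genes that went with Spp1 across injured microglia-like cells included genes of lysosomal proteases, lipid handling and iron storage. Spearman correlations were taken over 1930 wild-type and 1905 knockout-labelled cells, each thinned to 3000 UMIs, for 3300 genes found in at least 10% of the cells of both libraries. They describe cells of 1 mouse each, which share a library, and carry no p. The median gene had a correlation of -0.02 in wild type and -0.01 in knockout-labelled cells, and the central 90% of genes lay between -0.15 and 0.10 and between -0.09 and 0.08.

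Highest by the lower of the 2 correlations was Igf1, which encodes insulin-like growth factor 1 (0.53 in wild type and 0.35 in knockout-labelled cells). The 14 other genes are given by role. Lysosomal protease genes were Ctsb (0.48 and 0.33), Ctsd (0.47 and 0.32) and Ctsz (0.36 and 0.31), and Cd63 encodes a tetraspanin of late endosomes and lysosomes (0.42 and 0.28). Lipid genes were Lpl (0.32 and 0.37), the fatty acid-binding protein gene Fabp5 (0.50 and 0.28) and the apolipoprotein gene Apoe (0.39 and 0.24). The ferritin chains Ftl1 (0.49 and 0.29) and Fth1 (0.35 and 0.27), which store iron, were also among the 15. The remaining 5 were Fxyd5, a regulator of the sodium pump (0.32 and 0.32), the adaptor gene of Trem2, Tyrobp (0.27 and 0.25), the inhibitory receptor gene Lilrb4a (0.27 and 0.25), the actin-capping gene Capg (0.24 and 0.28) and the annexin gene Anxa5 (0.33 and 0.23).

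Summed over microglia-like cells, the same genes had higher levels in the injured than in the sham libraries. Igf1 had 3.35 CPM in wild-type sham, 419 CPM in wild-type injured, 6.46 CPM in knockout-labelled sham and 91.7 CPM in knockout-labelled injured. Fabp5 had 6.26, 848, 9.32 and 200.2 CPM in the same order, and Apoe 706, 46949, 885 and 15204 CPM. The injured wild type was highest for all 3.

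Genes that went against Spp1 included markers of resting microglia. The lowest by the higher of the 2 correlations was Cst3, the gene of cystatin C (-0.52 and -0.36). It was followed by the purinergic receptor gene P2ry12 (-0.40 and -0.30), Tmem119 (-0.29 and -0.28), Selplg (-0.35 and -0.26), Serinc3 (-0.34 and -0.25), Gpr34 (-0.31 and -0.23), the ribosomal protein gene Rps9 (-0.33 and -0.23) and Siglech (-0.42 and -0.22). These genes were usable for the clustering, and most of the relation lay between clusters. Within clusters the correlations of the 15 genes fell to between 0.02 and 0.21 in size, the highest being Lpl (0.21) and Fxyd5 (0.21) in knockout-labelled cells and Igf1 (0.20) in wild type. Without the Cd5l/Igf1 cluster 13 of the 15 were again among the 15 highest, while Igf1 was then found in under 10% of knockout-labelled cells and did not qualify. Igf1 also fell under the required share of cells with the highest-scored cells kept, without shared barcodes, with the 6 members kept in the clustering, at resolution 2 and with a minimum of 25% of cells, so its first place depends on these settings.

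**Figure D4:**
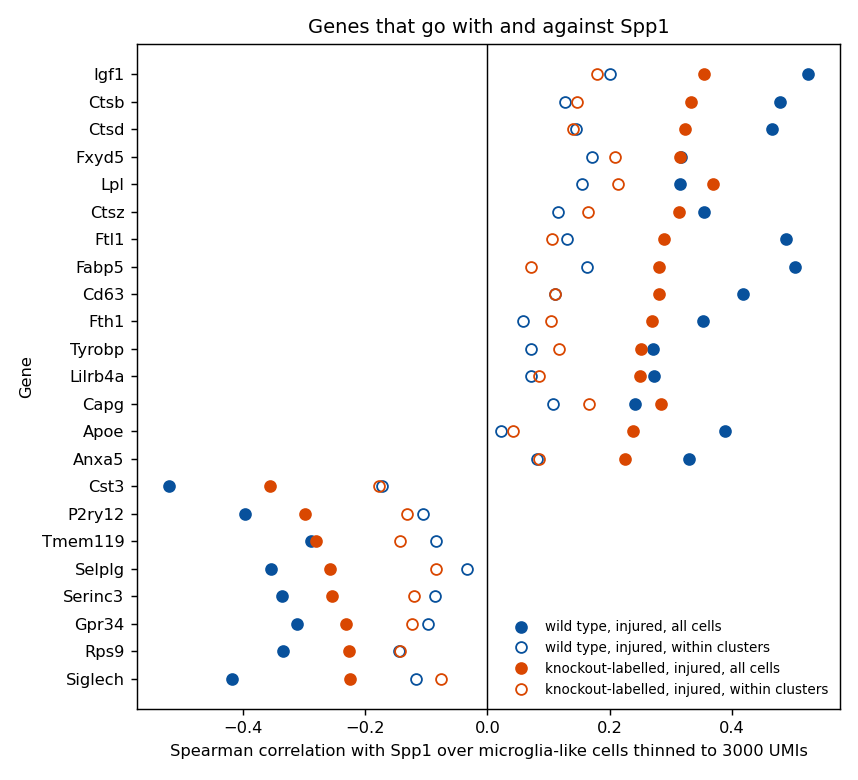
Spearman correlation with Spp1 (horizontal) of the 15 genes that went most with it and the 8 that went most against it (vertical) over thinned microglia-like cells of the 2 injured libraries, for all cells (filled) and within clusters (open). The lowest filled point of the first 15 genes is at 0.23 and their highest open point at 0.21.

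Of the receptor genes, Itgav (-0.04 and 0.00), Itgb1 (-0.03 and -0.04) and Itgb5 (-0.11 and 0.01) lay within the central 90% of genes in both libraries. Cd44 and Itgb3 were found in too few thinned cells to be given a correlation, and their levels by Spp1 UMIs are given with each gene. Over 47 sums of a cluster and a library with at least 20 cells, the genes most like Spp1 by Pearson correlation of log2(CPM + 10) were the apolipoprotein gene Apoc2 (0.90), the galectin-3 gene Lgals3 (0.87) and Apoc1 (0.87).

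Cd44, the hyaluronan receptor of many leukocytes, was highest in neutrophil-like, dendritic cell-like and macrophage-like cells of the injured wild type. Its level there was 565 CPM (469.5 to 674) in neutrophil-like, 161 CPM (129 to 197) in dendritic cell-like, 97.2 CPM (91.0 to 104) in monocyte-derived macrophage-like and 24.3 CPM (12.6 to 42.5) in border-associated macrophage-like cells. Microglia-like cells had 20.2 CPM and endothelial-like cells 1.73 CPM, from 1 UMI in 82 cells. The first 3 classes did not overlap in their counting intervals. In the injured knockout-labelled library the macrophage-like level was 96.5 CPM (75.8 to 121), a ratio to the wild type of 0.993 (0.773 to 1.26), so that no difference was detectable at this depth. Macrophage-like cells made 55.9% of Cd44 UMIs in the injured wild type and 21.4% in the injured knockout-labelled library, and microglia-like cells 29.7% and 60.9%. The few macrophage-like cells of the sham libraries, 7 in each, had 552 and 730.2 CPM, and neutrophil-like cells numbered 7 in each knockout-labelled library.

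In microglia-like cells Cd44 was low and differed between sham and injury. It had 3.35 CPM (23 UMIs) in wild-type sham, 20.2 CPM (490 UMIs) in wild-type injured, 1.27 CPM (12 UMIs) in knockout-labelled sham and 9.72 CPM (210 UMIs) in knockout-labelled injured. Both injured libraries were above both sham libraries, by 6.05 times in wild type (3.98 to 9.63) and 7.65 times in the knockout-labelled pair (4.29 to 15.04). Without the Cd5l/Igf1 cluster the ratios were 4.45 and 6.99. The injured knockout-labelled level was 0.480 times the injured wild-type one (0.407 to 0.565), and 0.597 times (0.491 to 0.724) without that cluster. The injured levels came mostly from the same clusters as Spp1, with 33.0 and 31.9 CPM in the Cd5l/Igf1 cluster and 27.0 and 23.2 CPM in the Lpl/Ch25h cluster of the wild-type and knockout-labelled library. In the Hspa1b/P2ry13 cluster, by contrast, Cd44 had 0 UMIs in 88 wild-type cells and 1 UMI in 134 knockout-labelled cells.

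Cd44 was also higher in microglia-like cells that held more Spp1. In the injured wild type it had 5.28 CPM in 351 cells without Spp1 UMIs, 11.4 CPM in 1114 cells with 1 to 9, 25.4 CPM in 292 cells with 10 to 99 and 37.0 CPM (32.5 to 42.0) in 302 cells with 100 or more. In the injured knockout-labelled library the same bins had 5.53, 9.96, 24.1 and 24.1 CPM, the last from 24 UMIs in 40 cells. Without the Cd5l/Igf1 cluster the wild-type values were 5.42, 10.2, 25.4 and 32.7 CPM and the knockout-labelled values 5.57, 9.23, 23.6 and 17.1 CPM. Cells with more Spp1 were deeper, with medians from 6774 to 20227 UMIs in the wild type. After thinning to 3000 UMIs, Cd44 was found in 5.60% of 1142 wild-type microglia-like cells with Spp1 and in 2.03% of those without, and in 3.78% and 1.60% of knockout-labelled cells. In the macrophage-like cells of the wild type the order was the opposite, with 153 CPM in cells with 1 to 9 Spp1 UMIs, 91.5 CPM with 10 to 99 and 89.8 CPM with 100 or more. Genes most like Cd44 over the cluster sums were Cyp4f18 (0.92), the chemokine receptor gene Cxcr4 (0.87) and AI839979 (0.87).

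None of the 4 integrin chains was called 2-fold different in microglia-like cells after injury on the log2 scale with a prior of 10 CPM. Without the prior, the wild-type ratio of Itgb3, given below, was more than 2-fold lower. The levels of Itgav, Itgb1 and Itgb3 were below sham in both pairs, also under median-of-ratios scaling, whereas the direction for Itgb5 depended on the scaling. Itgav, the alpha chain shared by the alpha v integrins, had 121.6 CPM in wild-type sham, 63.1 CPM in wild-type injured, 122.0 CPM in knockout-labelled sham and 71.7 CPM in knockout-labelled injured microglia-like cells. The injured level was 0.519 (0.477 to 0.566) and 0.588 (0.544 to 0.635) times the sham level. It stayed below 1 under median-of-ratios scaling, at 0.728 and 0.738, and was 0.521 and 0.598 without the Cd5l/Igf1 cluster. Monocyte-derived macrophage-like cells of the injured wild type had 79.8 CPM (74.2 to 85.7), endothelial-like cells 19.0 CPM, and oligodendrocyte lineage-like cells 202 CPM (151 to 265) from 32 cells. The most similar genes over cluster sums were Mgat5 (0.87), Specc1 (0.87) and Whrn (0.86).

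Itgb1, the beta chain with the widest choice of partners, was highest in endothelial-like cells among classes with at least 20 cells in a library, at 361 CPM (286 to 451) in wild-type sham, 271 CPM in wild-type injured, 330 CPM in knockout-labelled sham and 245 CPM in knockout-labelled injured. Microglia-like cells had 168, 108, 165 and 120 CPM in the same order. In microglia-like cells the injured level was 0.642 times sham in the wild type and 0.727 times in the knockout-labelled pair, and 0.900 and 0.914 times under median-of-ratios scaling. In macrophage-like cells it was 98.5 CPM in the injured wild type and 115 CPM (92.1 to 141) in the knockout-labelled library. Anp32a (0.87), the ERM protein gene Rdx (0.87) and Pttg1ip (0.83) were most like it.

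Itgb3, the beta chain of the classical osteopontin and vitronectin receptor, was rare and mostly counted in microglia-like cells. These were 56.9% to 77.8% of the cells and held 81.5% to 94.6% of the Itgb3 UMIs in the 4 libraries. Its level there was 24.3 CPM in wild-type sham, 10.6 CPM in wild-type injured, 24.7 CPM in knockout-labelled sham and 16.3 CPM in knockout-labelled injured, with ratios of 0.437 (0.358 to 0.534) and 0.660 (0.558 to 0.782), or 0.612 and 0.830 under median-of-ratios scaling. With the prior of 10 CPM its log2 ratios were -0.73 and -0.40, so it was not called 2-fold lower. The macrophage-like cells that were rich in Spp1 had 1.90 CPM (1.12 to 3.00) in the injured wild type, below the 5.62 to 31.4 CPM of the microglia-like clusters of that library, with an interval that overlapped only that of the lowest, the Ifit3/Ifit2 cluster (1.82 to 13.1). Of the injured knockout-labelled library 7 UMIs in 60 macrophage-like cells gave 9.13 CPM (3.67 to 18.8). In endothelial-like cells 0 UMIs were found in 3 libraries and 1 UMI in the injured wild type. In oligodendrocyte lineage-like cells Itgb3 had 25.3 CPM (8 UMIs) in knockout-labelled sham and 29.1 CPM (7 UMIs) in knockout-labelled injured. Wild-type oligodendrocyte lineage-like cells held 0 UMIs of Itgb3 after sham surgery and 1 UMI after injury. Within the microglia-like cells of the injured wild type it had 13.8 CPM without Spp1 UMIs and 7.07 CPM (5.20 to 9.41) with 100 or more, and in the knockout-labelled library 15.7 and 20.1 CPM (12.3 to 31.0). Mlph (0.82), Snx18 (0.80) and the microglial transcription factor gene Sall1 (0.79) were most like it.

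Itgb5, whose product pairs with the alpha v chain, was found in nearly every microglia-like cell. Microglia-like cells had 1067 CPM in wild-type sham, 751 CPM in wild-type injured, 1060 CPM in knockout-labelled sham and 961 CPM in knockout-labelled injured, and 97.1% to 98.1% of them had a UMI. Endothelial-like cells had 41.2 to 76.0 CPM and border-associated macrophage-like cells 154 to 285 CPM. Monocyte-derived macrophage-like cells were intermediate, with 506 and 490.5 CPM in the injured libraries. The injured level in microglia-like cells was 0.704 (0.685 to 0.723) times sham in wild type and 0.906 (0.885 to 0.928) times in the knockout-labelled pair, but under median-of-ratios scaling these became 0.986 and 1.14. Its log2 ratio of -0.14 in the knockout-labelled pair lay above the median of all genes there (-0.21), and that of -0.50 in the wild-type pair below the median there (-0.32). Between the injured libraries the knockout-labelled level was 1.28 times the wild-type one for Itgb5 (1.25 to 1.30) and 1.53 times for Itgb3 (1.30 to 1.81), and 1.20 and 1.39 times without the Cd5l/Igf1 cluster. Between the sham libraries the ratios of the 4 integrin chains lay between 0.983 and 1.01. Across clusters of the injured wild type it went from 1039 CPM in Slc5a3/Hbegf to 701 CPM in Lpl/Ch25h and 621 CPM in Cd5l/Igf1. Over Spp1 bins of the same cells it went from 848 CPM without Spp1 UMIs to 652 CPM with 100 or more, while the knockout-labelled bins ran from 968 to 942 CPM. Olfml3 (0.97) and Gpr34 (0.96), both markers of microglia, were among the 3 genes most like it.

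**Figure D5:**
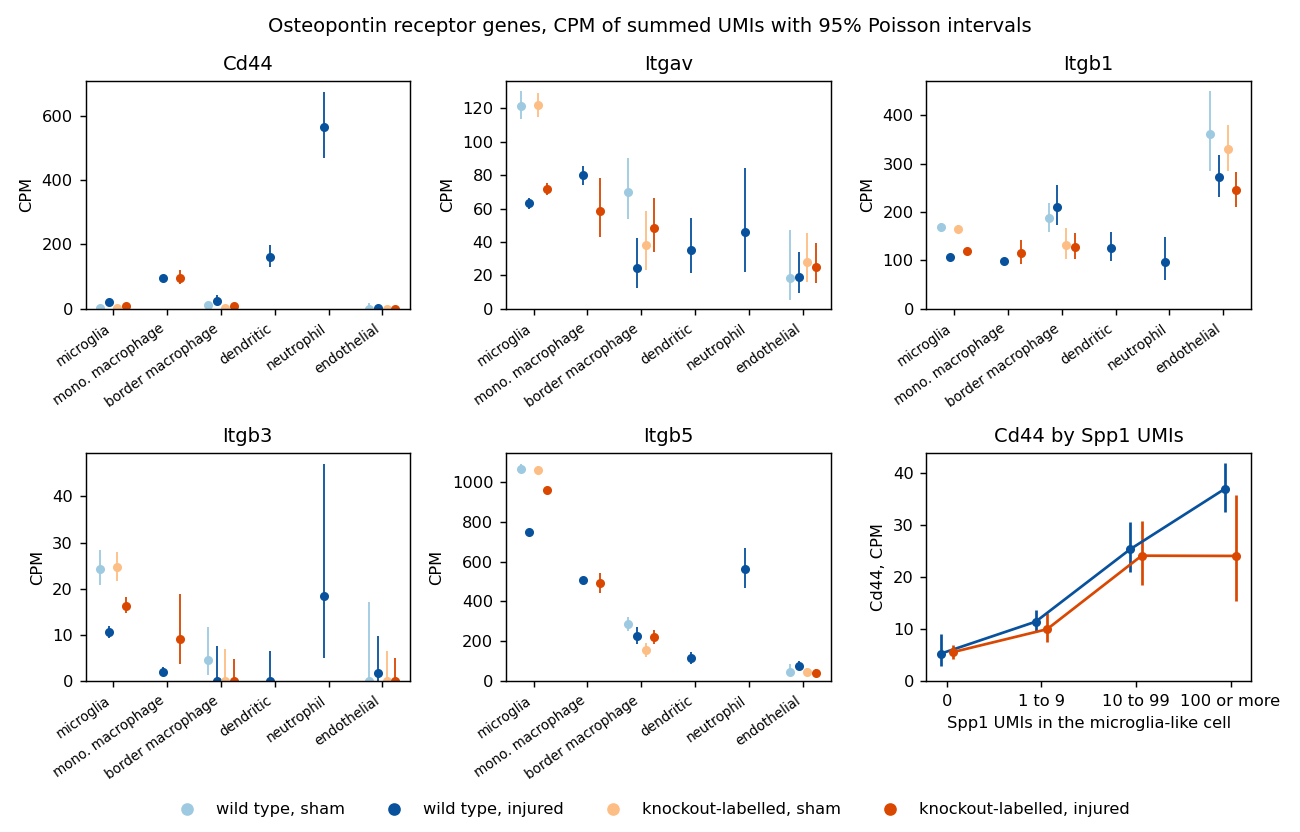
Level of Cd44, Itgav, Itgb1, Itgb3 and Itgb5 (vertical, CPM of summed UMIs with 95% Poisson interval) by cell class with at least 20 cells in a library, with colours for the 4 libraries, and in the last panel Cd44 in injured microglia-like cells by their number of Spp1 UMIs. Cd44 is highest in neutrophil-like cells (565 CPM), Itgb1 in endothelial-like cells (245 to 361 CPM) and Itgb5 in microglia-like cells (751 to 1067 CPM).

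Other genes of the pathway were taken from lists by role, and are given for microglia-like cells as counts of genes that reached the minimum level and of those 2-fold different, beside the median of all genes in the same pair (-0.32 in wild type and -0.21 in knockout-labelled). Of all genes counted, 4.25% were 2-fold higher and 10% lower in the wild-type pair, and 2.63% and 1.52% in the knockout-labelled pair. No list was tested. The calls use CPM, with 265 genes higher and 625 lower in the wild-type pair, against 592 and 151 under median-of-ratios scaling. The lists were not counted with that scaling, so calls near 2-fold can depend on it. Of the 5 genes of the osteopontin family (SIBLING proteins) only Spp1 reached the minimum level. Of 13 alpha chains that pair with these beta chains 4 did, and 1, Itga9, was 2-fold lower in both pairs. Itga9, whose product with beta 1 binds the cryptic site of cleaved osteopontin, had 54.5 CPM in wild-type sham and 7.35 CPM in wild-type injured, and 40.7 and 10.3 CPM in the knockout-labelled pair. The laminin-binding chain Itga6 had 266 and 133 CPM in the wild-type pair and 228 and 149 CPM in the knockout-labelled pair, and the fibronectin-binding chain Itga5 had 15.1 and 21.0 CPM and 15.8 and 21.6 CPM. The median log2 ratio of the alpha chains was -0.90 in wild type and -0.64 in knockout-labelled.

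Of 9 other beta chains and leukocyte integrins 3 were counted. Itgax, which encodes the alpha chain CD11c, was 2-fold higher in both pairs, with 5.97 and 22.6 CPM in wild type and 7.62 and 37.1 CPM in knockout-labelled. Itgam, the CD11b chain by which the cells were selected, had 623 and 313 CPM and 588 and 413 CPM, and its partner Itgb2 had 248 and 206 CPM and 255 and 249.7 CPM. Their median was -0.25 in wild type and -0.03 in knockout-labelled.

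Of 22 other ligands of these integrins 5 were counted in the wild-type pair and 3 in the knockout-labelled one. Fibronectin (Fn1) was 2-fold higher in both, with 1.17 and 58.5 CPM in wild type and 0.847 and 21.7 CPM in knockout-labelled. Pecam1, an adhesion molecule of endothelium and leukocytes, was 2-fold lower in the wild type, with 23.3 and 3.39 CPM, and had 18.7 and 5.41 CPM in the knockout-labelled pair. Tgfb1, whose latent form is activated by alpha v integrins, had 425 and 222 CPM and 423 and 312 CPM. Thrombospondin 1 (Thbs1) had 12.4 and 22.7 CPM and 8.58 and 9.95 CPM. The median was -0.19 in wild type and 0.49 in knockout-labelled.

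Among 20 hyaluronan genes and other CD44 partners 6 were counted in each pair, none was 2-fold different in the wild type, and only Cd74, the MHC class II chaperone and receptor partner of CD44, was higher in the knockout-labelled pair. Cd74 had 63.9 and 60.9 CPM in wild type and 65.8 and 149.7 CPM in knockout-labelled. The ERM genes Rdx and Msn, which link CD44 to actin, had 156 and 89.9 CPM and 372 and 243 CPM in the wild-type pair. Adam10, a sheddase of CD44, had 185 and 113 CPM, and the proteoglycan gene Srgn 313 and 506 CPM. The list's median was -0.33 in wild type and 0.06 in knockout-labelled.

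Among 16 genes for enzymes that modify osteopontin, 5 were counted in the wild-type and 6 in the knockout-labelled pair, and 3 were 2-fold higher (all genes 4.25% and 2.63%) and 1 was 2-fold lower in both (all genes 10% and 1.52%). Fam20c, the secretory kinase that phosphorylates osteopontin, had 6.12 and 39.6 CPM in wild type and 5.19 and 38.5 CPM in knockout-labelled. Ctsb had 1492 and 7314 CPM and 1577 and 4479 CPM, and Ctsd 6691 and 23246 CPM and 7603 and 16997 CPM. Tgm2, a transglutaminase that cross-links osteopontin, was the lower one, with 45.3 and 17.1 CPM and 46.8 and 15.3 CPM. The list's median was 1.62 in wild type and 0.73 in knockout-labelled.

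Of 30 genes of integrin adhesion and signalling 24 were counted in the wild-type and 23 in the knockout-labelled pair, and only the tetraspanins Cd9 and Cd63 were 2-fold different, both higher in both pairs, where 14.3% and 4.15% of all genes were 2-fold different in either direction. Cd63 had 289 and 1889 CPM in wild type and 317 and 1272 CPM in knockout-labelled, and Cd9 1066 and 2596 CPM and 1341 and 3055 CPM. The talin gene Tln2 had 77.5 and 38.6 CPM and the paxillin gene Pxn 62.9 and 31.4 CPM in the wild-type pair. The list's median (-0.37 and -0.26) was near that of all genes.

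Of 14 reported regulators of Spp1 13 were counted in both pairs. Apoe and Hif1a were 2-fold higher and Jun, Ets1, Stat3 and Tfe3 2-fold lower in the wild type, while only Apoe was higher and only Jun lower in the knockout-labelled pair. Over all genes 4.25% were higher and 10% lower in the wild type, and 2.63% and 1.52% in the knockout-labelled pair. Jun, a subunit of AP-1, had 4865 and 1639 CPM in wild type and 4933 and 2327 CPM in knockout-labelled. Ets1, an ETS family factor, had 94.5 and 30.4 CPM and 102 and 56.2 CPM, and Tfe3, a lysosomal gene regulator, 247 and 91.1 CPM and 173 and 124 CPM. Hif1a, the hypoxia-induced factor, had 95.5 and 203 CPM and 97.0 and 186 CPM, and Stat3, a transducer of IL-6 family signals, 243 and 102 CPM and 148 and 116 CPM. The list's median was -0.22 and -0.17. Between the injured libraries 3 listed genes were 2-fold lower in the knockout-labelled one, namely Spp1, Fn1 and Apoe, and 1, Cd74, was higher. Of all 5436 genes counted there, 0.809% were lower and 0.129% higher. The values of the lists include the Cd5l/Igf1 cluster. Between the sham libraries none of the listed genes was called, against 0.196% of 6126 genes in either direction.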

How the data were processed

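RNA of single CD11b+ cells was counted in 4 libraries of 1 mouse each. For every barcode the deposited files list a UMI count for each gene. The submitters' processing notes name Cell Ranger 6.0.1 and the build mm10. Counts were analysed as deposited with Python 3.11.15, scanpy 1.11.5 and scipy 1.17.1. A barcode was kept if it reached 500 genes and 1000 UMIs and its mitochondrial share did not exceed 10%, and the highest-scored barcodes by Scrublet (0.8% per 1000 barcodes, 152 in all) were left out as likely doublets. Analysed UMIs per library ranged from 10071738 to 36136520. The cells were clustered (2000 variable genes, 30 principal components, 15 neighbours, Leiden resolution 1) after 318 genes, the 6 members among them, were left out. Clusters were named from marker lists. Clusters named microglia-like carried different shares of the sham and injured libraries, so values are also given by cluster.

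Levels are summed UMIs as CPM with exact 95% Poisson intervals, ratios have exact conditional binomial intervals, and log2 ratios carry a prior of 10 CPM. PCR and sampling of cells are not covered by these intervals. No test between groups was possible with 1 library a group. To compare cells of unequal depth, each was thinned to 3000 UMIs. Named genes were the 6 members, the 15 genes most with and the 8 most against Spp1, up to 4 genes per list with the largest wild-type injury ratio, and the 3 most similar genes of each member. One of these genes and 1 cluster's values are not reported here. Cd74, Hif1a and Stat3 were added after their values were seen, because they were counted as 2-fold different. The members, the gene lists and the markers were chosen with earlier results of these data known. The scripts were tested on simulated data. Alternatives covered the cell filter, likely doublets, shared barcodes, clustering, scaling, the prior, the minimum level and thinning. Positions and the coding sequence are from GENCODE vM21 on GRCm38, and the promoters from RefSeq.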

Additional observations from a re-analysis of the deposited data

Results flagged for a closer look

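In border-associated macrophage-like cells 3 integrin chains had injury ratios on opposite sides of 1 in the wild-type and the knockout-labelled pair, and these differences were not tested. The injured level of Itgav was 0.347 times the sham level in wild type (0.170 to 0.651), from 61 and 12 UMIs, and 1.27 times in knockout-labelled (0.717 to 2.30), from 20 and 37 UMIs. For Itgb1 the ratios were 1.13 (0.872 to 1.45) and 0.973 (0.708 to 1.34), both with intervals that include 1. For Itgb5 they were 0.797 (0.632 to 1.00) and 1.42 (1.08 to 1.88). The sham libraries themselves differed in this class, with knockout-labelled levels 0.543 times the wild-type ones for Itgav and 0.541 times for Itgb5.

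Spp1 was also counted in barcodes that the cell filter left out, which enter no comparison above. These had 7207 CPM in the injured wild type against 16.1 CPM in wild-type sham, and 226 CPM in the injured knockout-labelled library against 2.06 CPM in knockout-labelled sham.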

How the results depend on the processing

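The microglia-like Spp1 level was above sham in both injured libraries under every alternative that does not remove cells by their Spp1. Under the same alternatives it was lower in the injured knockout-labelled library than in the injured wild type. The sizes moved. In the order wild-type injury ratio, knockout-labelled injury ratio and knockout-labelled against wild type after injury, they were 587, 131 and 0.167 with the stricter cell filter, 735, 39.9992 and 0.156 with the highest-scored cells kept, and 643, 109.5 and 0.134 without shared barcodes. They were 186, 25.1 and 0.390 with the 6 members kept in the clustering, where Spp1 itself could help to choose the microglia-like cells. At resolution 2 they were 721, 37.9 and 0.154. Without the Cd5l/Igf1 cluster, an alternative chosen after seeing the data, they were 601, 36.6 and 0.174. Leaving out the 1% of cells with most Spp1 removes cells by the outcome and took all Spp1 UMIs of the wild-type sham cells, so it says nothing of stability; the wild-type ratio was then at least 16573 (against a floor of 3 counts in the sham library) and the others 1230 (421 to 5967, on few sham counts) and 0.0541. With each cell weighted equally the wild-type ratio was 541 and the ratio between injured libraries 0.0995, and with Spp1 and Apoe out of the total the latter was 0.101. Median-of-ratios scaling gave 92.9 for the knockout-labelled injury ratio and 0.0955 between injured libraries, and the unnamed clusters with microglia markers gave 87.5 for the former.

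The ratio between sham libraries turned below 1 without shared barcodes (0.786), with cells weighted equally (0.695) and with the stricter filter (0.748). The Itgb5 injury ratio of the knockout-labelled pair turned above 1 under median-of-ratios scaling (1.14).

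The share of Spp1 UMIs from microglia-like cells in injured wild type and injured knockout-labelled was 17.7% and 60.8% with the stricter filter, 14.96% and 44.5% with the highest-scored cells kept, 15.3% and 42.7% without shared barcodes, 3.17% and 26.7% with members kept in clustering, 17.1% and 46.6% at resolution 2, 13.2% and 41.3% without the Cd5l/Igf1 cluster, and 62.6% and 88.7% with the unnamed clusters added. Cells with Spp1 were 63.9% and 18.1% after thinning, 42.2% and 11.4% at 5 UMIs, and 85.2% in wild type with the stricter filter.

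Of genes 2-fold lower after injury in wild type (625) there were 277 without shared barcodes, 388 with the highest-scored cells kept, 257 with members in clustering, 407 at resolution 2, 383 without the Cd5l/Igf1 cluster and 1135 with a prior of 1 CPM, which also gave 227 lower in the knockout-labelled pair (93). Median-of-ratios scaling gave 592 higher and 151 lower in wild type and 276 higher and 28 lower in knockout-labelled, and members in clustering 169 higher in wild type (265). Between injured libraries (7 higher and 44 lower in knockout-labelled) the counts were 1 and 19 without shared barcodes, 0 and 22 with the highest-scored cells kept, 1 and 7 with members in clustering, 17 and 67 with the prior of 1 CPM, 1 and 20 at resolution 2, 0 and 18 with the stricter filter, and 3 and 19 without the Cd5l/Igf1 cluster. There 2 were higher under median-of-ratios scaling and 4 with the unnamed clusters added. Between sham libraries (4 and 8) the prior of 1 CPM gave 7 and 15, and the stricter filter 13 lower.

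Of the 15 genes that went with Spp1, 9 were found again within clusters and 9 among genes in at least 25% of cells. Of the 8 that went against it, 3 were found again within clusters and 4 with members in clustering. The cause of these shifts was not tested. No paired analysis was possible because each group is 1 library. With 1 mouse a group the difference between mice is unknown, cells of 1 mouse do not replace it, and low counts limit Cd44 and Itgb3.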
